A study of Mus musculus with 36 samples.

Results

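The 7 genes described here, Fads1, Fads2, Scd2, Elovl1, Elovl2, Elovl3 and Elovl5, encode the desaturases and elongases that build polyunsaturated and very long chain fatty acids, together with the desaturase Scd2. They were chosen by gene symbol, through every array probe that carries one of these names. They have 17 probes among the 56605 of the array, and 16 of them entered the analysis, as 7 of 23056 genes. The excluded probe, A_55_P2721757 of Elovl1, was well above background on 0 of 36 arrays.

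RNA of whole liver was hybridised to 36 single-colour arrays in 6 groups of 6. All animals were male mice, 11 weeks old, for which the labels record no treatment, with free access to a standard chow, and lights went on at ZT0 (Zeitgeber time) and off at ZT12. IRLKO livers lacked the insulin receptor in hepatocytes. In this line the fourth exon of Insr lies between LoxP sites, and a tamoxifen-inducible Cre, TTR-CreTam, is driven by the transthyretin promoter on a C57BL/6J background. IRLWT mice were the controls of that line, and the sources used here give neither the time of tamoxifen nor whether controls carried Cre. Each genotype was sampled at ZT8, ZT12 and ZT16. The labels number the arrays of a group as replicates without saying in words that each is a separate mouse, so p-values measure the spread between these samples.

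Linoleic and alpha-linolenic acid cannot be made by mammals and enter with the diet. In the endoplasmic reticulum, the delta-6 desaturase Fads2, the elongase Elovl5, the delta-5 desaturase Fads1 and the elongase Elovl2 act in turn to lengthen and desaturate them toward arachidonic acid and docosahexaenoic acid (DHA). A last shortening step in peroxisomes yields DHA. Elovl1 and Elovl3 lengthen saturated and monounsaturated chains instead, and the delta-9 desaturase Scd2 makes monounsaturated fatty acids. The liver is a main site of this synthesis, and the transcription factors SREBP-1c, which insulin induces, and PPARalpha are known regulators of its enzymes.

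The changes of these genes differed in size and direction between members. Elovl3 was lower in knockout livers at all 3 times, with log2 ratios to control of -7.38 to -6.67, and Elovl1 was lower with ratios of -0.65 to -0.36 (n = 6 per group). Elovl2 was higher at ZT16, with a ratio of 0.75 ± 0.13 (SE). Elovl5 was lower at ZT8 (-0.64 ± 0.20) and higher at ZT16 (0.76 ± 0.20). The brightest probes of Fads2 and Fads1 passed the test at none of the times, although other probes of both genes did, and Scd2 passed at none.

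Sequence upstream of the start is shown for the members with an entry in the set of promoter sequences used here (RefSeq, build GRCm38.p6). Members moved in different directions, and a reader may want to compare their promoters. Of the 7 members, 4 had an entry: Elovl1, Elovl2, Elovl5 and Fads2. Elovl3, Fads1 and Scd2 had none, although the array names a RefSeq transcript for each. The 250 bases before the most upstream start listed are printed 5′ to 3′ on the strand of the gene, and capitals mark matches, on either strand, to any of 6 motifs. These were CCAAT (NF-Y), CACGTG (E-box), TCACNCCAC (SREBP), GTAAACA (forkhead), GGGCGG (GC box) and AGGTCA (nuclear receptor site).
Elovl5, chr9:77917115-77917364, plus strand: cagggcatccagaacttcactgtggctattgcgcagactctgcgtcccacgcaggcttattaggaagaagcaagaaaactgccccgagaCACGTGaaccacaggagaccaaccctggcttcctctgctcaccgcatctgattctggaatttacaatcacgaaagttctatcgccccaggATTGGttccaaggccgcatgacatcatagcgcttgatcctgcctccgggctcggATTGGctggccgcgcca
Elovl2, chr13:41220404-41220653, minus strand: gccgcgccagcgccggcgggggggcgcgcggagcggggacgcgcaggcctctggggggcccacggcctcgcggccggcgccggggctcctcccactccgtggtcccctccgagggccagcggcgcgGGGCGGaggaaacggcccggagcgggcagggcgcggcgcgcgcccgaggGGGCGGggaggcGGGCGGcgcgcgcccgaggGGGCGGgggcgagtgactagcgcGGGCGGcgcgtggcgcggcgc
Elovl1, chr4:118427843-118428092, plus strand: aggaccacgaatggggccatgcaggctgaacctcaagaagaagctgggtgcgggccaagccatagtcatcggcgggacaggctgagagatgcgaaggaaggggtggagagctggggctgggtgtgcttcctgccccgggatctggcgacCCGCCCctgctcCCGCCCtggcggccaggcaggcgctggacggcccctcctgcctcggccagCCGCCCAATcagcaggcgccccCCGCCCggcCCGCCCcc
Fads2, chr19:10101504-10101753, minus strand: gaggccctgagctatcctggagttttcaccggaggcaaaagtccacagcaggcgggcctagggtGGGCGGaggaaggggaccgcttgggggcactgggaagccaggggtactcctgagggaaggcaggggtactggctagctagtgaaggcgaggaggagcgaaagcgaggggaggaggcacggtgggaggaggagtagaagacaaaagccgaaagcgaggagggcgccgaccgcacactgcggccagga

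The Elovl2 sequence is the richest in G and C, with 87.2% of bases, against 72.0% for Elovl1, 64.8% for Fads2 and 55.6% for Elovl5. It holds 5 GC boxes on the strand of the gene, and the Elovl1 sequence holds 5 on the opposite strand, of which the one at -39 to -34 from the start overlaps a CCAAT at -35 to -31. Fads2 has 1 GC box, at -186 to -181. Elovl5 has no GC box but a CACGTG at -161 to -156 and CCAAT on the opposite strand at -71 to -67 and -17 to -13. The SREBP and forkhead letters and AGGTCA have no match in these 4 windows. Over 32851 RefSeq windows of the same length, GGGCGG was found in 32.7%, CCAAT in 33.8%, CACGTG in 6.02%, AGGTCA in 14.0%, GTAAACA in 3.17% and TCACNCCAC in 1.05%. A match is a description of letters only.

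Signals are given as log2 of the processed signal minus the 75th percentile of the array, so that 0 is the brightness of a probe at that percentile, and levels of different probes cannot be set against each other. A gene is represented by its brightest probe unless another is named. The 75th percentile was 311 to 525 intensity units, 53.7% to 63.1% of spots were well above background and 0 were saturated. Insr had log2 ratios of IRLKO to IRLWT of -1.77, -1.88 and -1.65 at ZT8, ZT12 and ZT16, with no overlap of groups at its brightest probe, and of -0.95, -1.46 and -0.59 at a second probe, A_52_P6490, whose groups overlapped at ZT16. One array stood apart: IRLKO_ZT8 replicate 3 lay at 3.21 on the second principal component, against 29.3 to 46.1 for the other ZT8 knockouts. The ratios of Elovl2 at ZT8 and of Scd2 are given with and without it. All correlations include it. All 6 hepatocyte markers were well above background on every array. In whole tissue, fewer cells of a type and less RNA per cell cannot be told apart.

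At ZT8, 3 of the 7 members were called, meaning a limma p adjusted by Benjamini-Hochberg over all genes under 0.05, as were 35.4% of all genes. All 3 were lower, against 18.7% of all genes called lower and 16.7% called higher. The groups of 2 members did not overlap, as for 15.5% of genes. At ZT12, 3 members were called, against 42.2% of genes. These were 1 higher and 2 lower (19.6% and 22.6% of genes), and 2 did not overlap (21.3% of genes). At ZT16, 4 members were called, against 39.9% of genes, 2 higher and 2 lower (19.9% and 20.0% of genes), and 2 did not overlap (19.2% of genes). The members' median log2 ratio of IRLKO to IRLWT was -0.08, -0.05 and 0.09 at the 3 times, and that of all genes was 0.00704, -0.0168 and 0.0029. The share of members called was thus near that of all genes.

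**Figure D1:**
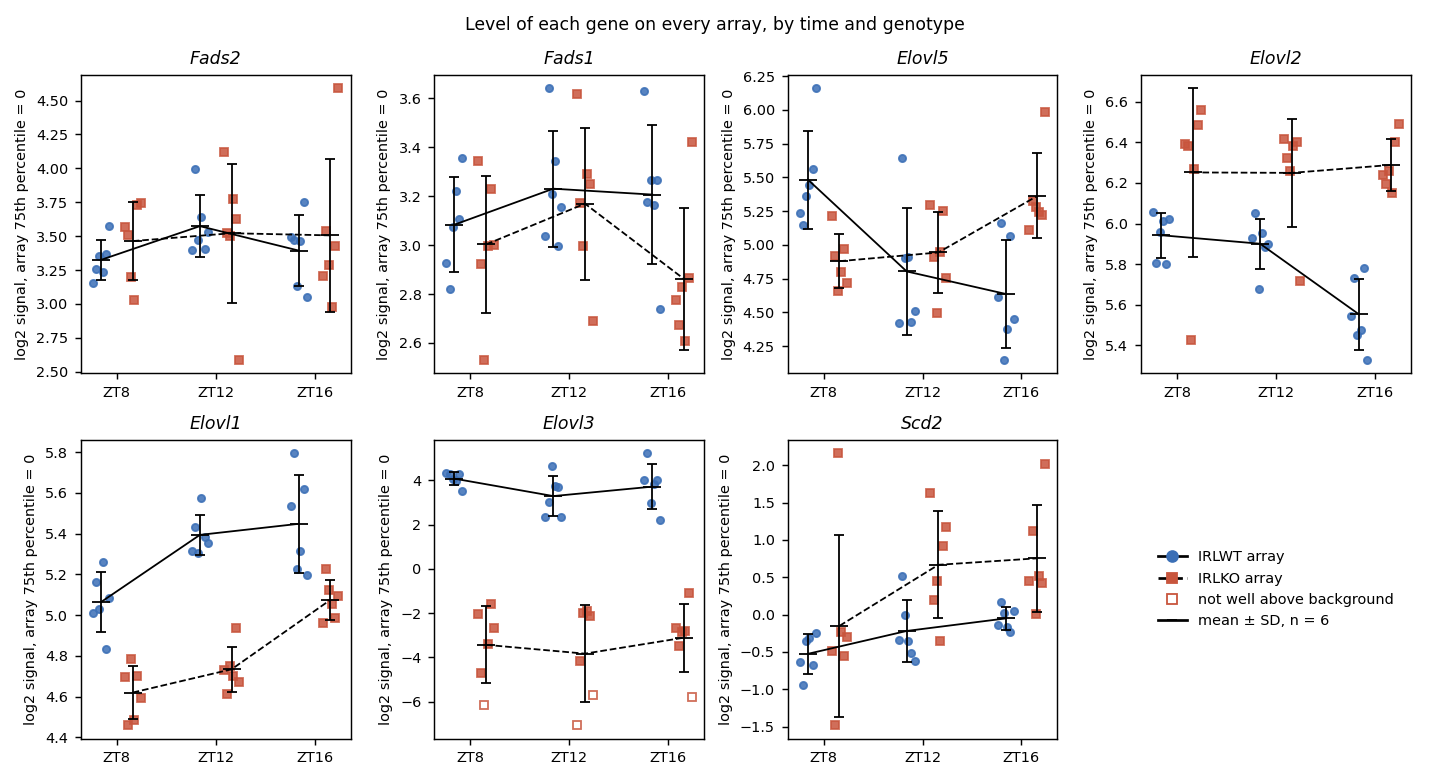
Level of each of the 7 genes at its brightest probe, in log2 units above the array's 75th percentile, on each of the 36 arrays by time (ZT) and genotype. Bars are mean ± SD of 6 arrays and open squares are arrays on which the probe was not well above background, which occurs for Elovl3 in knockout livers only. The knockout arrays of Elovl3 lie far below all controls, whereas those of Fads2 and Fads1 overlap the controls at each time.

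Fads2 catalyses the first and rate-limiting step. It was read by 5 probes, which lie on the minus strand of chromosome 19 (mm9). Sequences of the probes on which the result turns are shown, with the first histidine box of the enzyme's coding sequence in capitals in the most upstream probe and the stop codon in capitals in the brightest probe.
A_66_P130115, chr19:10163229-10163288: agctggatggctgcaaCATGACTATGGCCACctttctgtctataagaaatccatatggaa
A_51_P364609, chr19:10138750-10139180: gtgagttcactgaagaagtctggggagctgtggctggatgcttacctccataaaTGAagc

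The second probe spans 431 genomic bases with 60 bases of sequence, so a gap of 371 bases lies within it. A_55_P2729398 (chr19:10161035-10161094) lies between both printed probes. It has stop codons in all 3 reading frames, so it is not coding sequence throughout, and the array assigns it to another transcript than the printed probes. A_55_P2739989 (chr19:10138149-10138208) and A_65_P20641 (chr19:10137760-10137819) lie downstream of the stop codon.

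At the brightest probe, A_51_P364609, Fads2 of IRLWT livers had a lowest, median and highest level of 3.16, 3.31 and 3.58 at ZT8, of 3.40, 3.50 and 4.00 at ZT12, and of 3.05, 3.47 and 3.75 at ZT16. IRLKO livers had 3.03, 3.54 and 3.75, then 2.59, 3.57 and 4.12, then 2.98, 3.36 and 4.59. The groups overlapped at each time, and the knockout groups were wider at each time, with SD of 0.29, 0.51 and 0.57 against 0.15, 0.23 and 0.26. The log2 ratio was 0.14 (95% interval -0.29 to 0.57) at ZT8, -0.05 (-0.49 to 0.38) at ZT12 and 0.09 (-0.34 to 0.53) at ZT16, with limma adjusted p of 0.654, 0.863 and 0.755. These intervals include a change of Fads2 as large as that of Elovl2 at ZT12 (0.35).

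The other 4 probes of Fads2 had ratios of another sign at ZT16. At A_55_P2739989, the lowest, median and highest levels were 1.05, 1.58 and 1.97 in IRLWT and 0.05, 0.37 and 1.38 in IRLKO at ZT16. Only the upper part of the knockout range reached the control range, and the ratio was -0.98 ± 0.21 (SE; limma adjusted p = 4.99e-04). At A_65_P20641, the levels were 1.55, 2.19 and 2.47 against 0.76, 1.08 and 2.05, with a ratio of -0.86 ± 0.21 (limma adjusted p = 0.00151). A_66_P130115, the probe over the histidine box, was at -1.08, -0.45 and -0.32 in IRLWT and at -1.59, -1.21 and -0.30 in IRLKO, with a ratio of -0.52 (limma adjusted p = 0.0461). A_55_P2729398 had a ratio of -0.33 (limma adjusted p = 0.242). With the mean of all 5 probes standing for Fads2, the ZT16 ratio was -0.52 and was called (limma adjusted p = 0.0343). At ZT8 the 4 probes had ratios of 0.19 to 0.31 and at ZT12 of -0.34 to -0.52, of which none was called. Adjusted over all probes, 5 of the 16 member probes were called at ZT8, 5 at ZT12 and 9 at ZT16, against 33.7%, 39.3% and 37.9% of 34680 probes.

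Within each array, the level of A_51_P364609 minus the mean of the other 4 Fads2 probes was 2.04 ± 0.39 (SD, n = 6) in IRLKO and 2.13 ± 0.06 in IRLWT at ZT8, a difference of -0.09. At ZT16 it was 3.19 ± 0.23 against 2.41 ± 0.12, a difference of 0.78, with ranges of 2.85 to 3.57 and 2.21 to 2.54 that did not overlap. At ZT12 the difference was 0.34. Against the single probes at ZT16 the difference was 0.63 (A_66_P130115), 0.97 (A_65_P20641) and 1.08 (A_55_P2739989), with no overlap of groups, and 0.44 for A_55_P2729398, where the groups overlapped. These measures were chosen after the ratios of the probes were seen and are given as a description, with no test. Which probe follows the message of the enzyme was not tested.

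**Figure D2:**
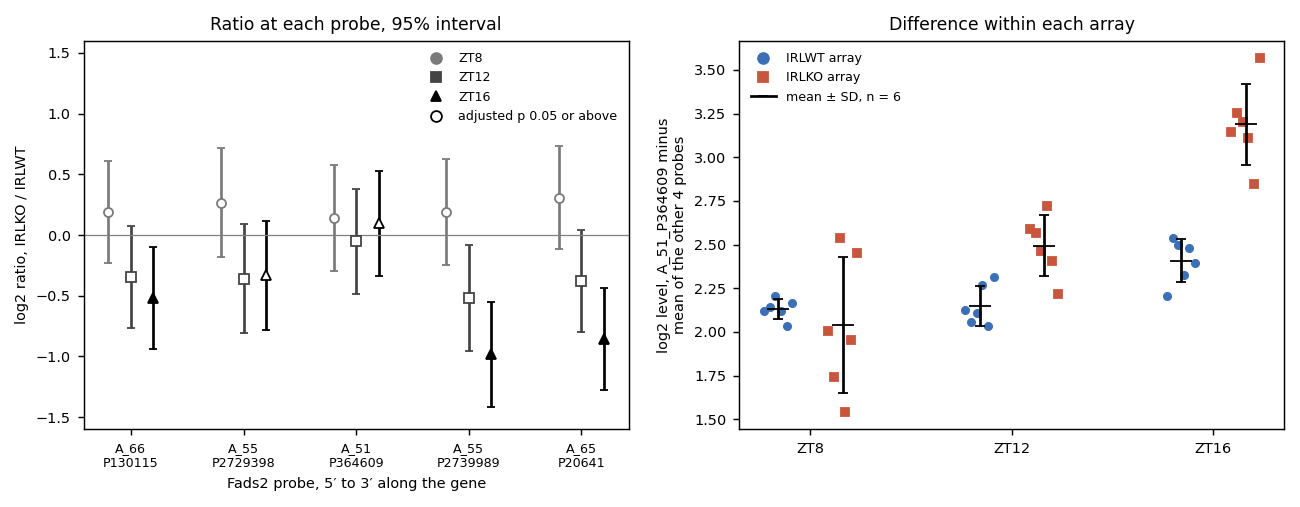
Left, log2 ratio of IRLKO to IRLWT with its 95% interval at the 5 probes of Fads2, ordered 5′ to 3′ along the gene, at ZT8, ZT12 and ZT16; open symbols have an adjusted p of 0.05 or above. Right, level of the brightest probe minus the mean of the other 4 on each array, with mean ± SD of 6, where the ZT16 knockout arrays (2.85 to 3.57) lie above all ZT16 controls (2.21 to 2.54).

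Over time, A_55_P2729398, the Fads2 probe that is not coding sequence throughout, fell from ZT8 to ZT16 in both genotypes. Its median level went from 2.28 to 1.03 in IRLWT and from 2.68 to 0.41 in IRLKO, with log2 changes of -1.46 (limma adjusted p = 6.94e-06) and -2.05 (2.29e-08) and no overlap of times in either genotype. In IRLKO the probes A_55_P2739989, A_65_P20641 and A_66_P130115 fell as well, with log2 changes of -0.93, -0.88 and -0.59 and limma adjusted p of 0.00116, 0.00147 and 0.0292. In IRLWT the same 3 probes had changes of 0.25, 0.28 and 0.11, which were not called. The brightest probe had changes of 0.09 in IRLWT and 0.04 in IRLKO, neither of them called. Of the 16 member probes, 6 were called between ZT8 and ZT16 in IRLWT and 8 in IRLKO, against 25.5% and 28.5% of all probes. The genotype effect at ZT16 minus that at ZT8 was -1.17 at A_55_P2739989 and -1.16 at A_65_P20641 (limma adjusted p = 0.0116 and 0.0100). These and both brighter Elovl5 probes made up the 4 of 16 probes called in that test, against 8.78% of all probes.

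Elovl5 lengthens the products of the delta-6 step. Its brightest probe, A_51_P505493, lies at chr9:77832205-77832264 (mm9). In IRLWT livers the lowest, median and highest levels were 5.14, 5.40 and 6.16 at ZT8, 4.42, 4.71 and 5.64 at ZT12, and 4.15, 4.54 and 5.16 at ZT16. In IRLKO livers they were 4.66, 4.86 and 5.21, then 4.50, 4.93 and 5.30, then 5.11, 5.26 and 5.99. The control level was thus highest at ZT8 and the knockout level at ZT16, and the ranges of the genotypes met at ZT8 and ZT16 by only a small part. By mean level the order was IRLWT ZT8 (5.48), IRLKO ZT16 (5.36), IRLKO ZT12 (4.94), IRLKO ZT8 (4.88), IRLWT ZT12 (4.80) and IRLWT ZT16 (4.64). Neighbours in this order differed by less than their SD of 0.20 to 0.47, except IRLKO ZT16 and IRLKO ZT12.

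The log2 ratio of Elovl5 was -0.64 ± 0.20 (SE; 1.56-fold lower; limma adjusted p = 0.0107) at ZT8, 0.18 (95% interval -0.22 to 0.58; adjusted p = 0.487) at ZT12 and 0.76 ± 0.20 (1.69-fold higher; adjusted p = 0.00271) at ZT16. The change from ZT8 to ZT16 was -0.88 in IRLWT (limma adjusted p = 9.97e-04) and 0.52 in IRLKO (limma adjusted p = 0.0438). Within the 3 wash batches the ratio was -0.89 to -0.33 at ZT8 and 0.42 to 1.18 at ZT16. The difference between the changes over time was 1.40 (95% interval 0.83 to 1.97; limma adjusted p = 0.00113). Elovl5 was the 1 member of 7 called in this test, which called 9.75% of all genes. It was likewise the 1 member called by the F test over the 3 times (adjusted p = 0.00406), against 8.46% of genes. The F test's adjusted p of the other 6 members was 0.228 to 0.928.

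A second probe of Elovl5, A_55_P2522620 (chr9:77827724-77827983, spanning a gap of 200 bases), gave ratios of -0.63, 0.25 and 0.94. Its ZT8 and ZT16 ratios were called, with limma adjusted p of 0.0336 and 0.0016, and its groups did not overlap at either of these times. Its difference between the ZT16 and ZT8 effects was 1.57 (limma adjusted p = 0.00183). The third probe, A_55_P2718343 (chr9:77805265-77805324), was well above background on 18 of 36 arrays and gave 0.41, 0.56 and -0.29, none of them called. With the mean of all 3 probes in place of the brightest, neither the ZT8 ratio of Elovl5 (-0.29, limma adjusted p = 0.329) nor that at ZT16 (0.47, 0.0874) was called, and the difference between them was 0.76 (0.135). The knockout rise from ZT8 to ZT16 was lost without any 1 of 7 single arrays (IRLKO_ZT16 replicates 3, 5 and 6 and IRLKO_ZT8 replicates 2, 3, 4 and 6), with a value of 0.38 (limma adjusted p = 0.145) without IRLKO_ZT16 replicate 6 and of 0.47 to 0.55 without each of the others. The call was also lost in 8 of 12 other alternatives, such as array weights (0.40, limma adjusted p = 0.105) and the mean of the probes (0.43, 0.156). It held in 33 of all 48 settings.

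Fads1 is the delta-5 desaturase that forms arachidonic and eicosapentaenoic acid. At its brightest probe, A_51_P358112 (chr19:10270530-10270589, mm9), the lowest, median and highest levels in IRLWT were 2.82, 3.09 and 3.35 at ZT8, 3.00, 3.18 and 3.64 at ZT12, and 2.74, 3.22 and 3.63 at ZT16. In IRLKO they were 2.53, 3.00 and 3.34, then 2.69, 3.21 and 3.62, then 2.61, 2.80 and 3.42. The groups overlapped at each time. The ratio of Fads1 was -0.08 (95% interval -0.40 to 0.25), -0.07 (-0.39 to 0.26) and -0.33 (-0.66 to -0.01), with limma adjusted p of 0.746, 0.771 and 0.0906. At ZT16, 5 of the 6 knockout arrays were between 2.61 and 2.86 and replicate 6 was at 3.42. Without that array the ratio was -0.45 and was called (limma adjusted p = 0.0159), as it was without IRLWT_ZT16 replicate 6 (-0.44, 0.0332) or with array weights (-0.48, 0.00227).

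A_55_P2732843 of Fads1 (chr19:10261805-10261864) was lower at ZT12. Its levels were 1.17, 1.47 and 2.01 in IRLWT and 0.31, 0.74 and 1.102 in IRLKO, so the groups did not overlap, with a ratio of -0.74 ± 0.20 (SE; limma adjusted p = 0.00417). Its ratios at ZT8 and ZT16 were -0.32 and -0.47, which were not called (0.225 and 0.0658). A_55_P2897923 (chr19:10257644-10257703) gave -0.12, -0.32 and -0.38, none of them called. With the mean of the 3 probes, Fads1 was called at ZT12 (-0.38, limma adjusted p = 0.0480) and ZT16 (-0.39, 0.0394). Thus the ratio of Fads1 was below 0 at all 3 probes and times, and passed the test at 1 probe and time.

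Elovl2 carries out the last elongation before DHA. It has 1 probe, A_55_P2062737, at chr13:41277884-41277943 (mm9, minus strand). The lowest, median and highest levels in IRLWT were 5.80, 5.99 and 6.05 at ZT8, 5.68, 5.92 and 6.05 at ZT12, and 5.33, 5.51 and 5.78 at ZT16. In IRLKO they were 5.43, 6.39 and 6.56, then 5.72, 6.35 and 6.41, then 6.15, 6.25 and 6.49. At ZT16 every knockout array lay above every control, and at ZT8 and ZT12 a single low knockout array made the groups overlap. Elovl2 of controls was lower at ZT16 than at ZT8, with a log2 change of -0.41 and no overlap (limma adjusted p = 0.0232), while the change in knockout livers was 0.03 (0.890). The control change was -0.38 (limma adjusted p = 0.0511) without IRLWT_ZT16 replicate 3 and -0.37 (0.0602) without replicate 6. With slide as a fixed block it was -0.35 (0.102), and it was called in 45 of 48 settings. The difference between the control and knockout changes was 0.44 and was not called (0.151). The F test over the 3 times did not call Elovl2 either. It did so in 2 of 47 other settings, quantile normalization (adjusted p = 0.0337) and the authors' processed table (0.0277).

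The ratio of Elovl2 was 0.31 ± 0.13 (SE; limma adjusted p = 0.0698) at ZT8, 0.35 ± 0.13 (0.0371) at ZT12 and 0.75 ± 0.13 (4.33e-05; 1.68-fold) at ZT16. The ZT16 ratio was 0.51 to 1.04 within the 3 wash batches. Without IRLKO_ZT8 replicate 3, the ratio at ZT8 was 0.48 and was called (limma adjusted p = 5.85e-04), as was the ratio of 0.30 without IRLKO_ZT12 replicate 6 (0.0470). The ZT12 call was lost without any 1 of 8 single arrays (IRLKO_ZT12 replicates 1 to 5 and IRLWT_ZT12 replicates 3, 5 and 6), with ratios of 0.29 to 0.34 and adjusted p of up to 0.107. It was also lost with quantile normalization (0.23, 0.0568), no filter on dim probes (0.0642), only the compared groups in the fit (0.0629) or slide as a fixed block (0.0501), and the ZT12 ratio was -0.26 within 1 of the 3 wash batches, which held 1 knockout and 2 control arrays.

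Elovl1 elongates saturated and monounsaturated acyl chains to very long chains used in sphingolipids. At A_55_P2151273 (chr4:118105163-118105222, mm9), the lowest, median and highest levels in IRLWT were 4.84, 5.06 and 5.26 at ZT8, 5.30, 5.37 and 5.57 at ZT12, and 5.20, 5.43 and 5.79 at ZT16. In IRLKO they were 4.46, 4.65 and 4.78, then 4.61, 4.72 and 4.94, then 4.96, 5.08 and 5.23. All knockout arrays were below all controls at ZT8 and ZT12, and at ZT16 the ranges just met. By mean the order was IRLWT ZT16 (5.45), IRLWT ZT12 (5.39), IRLKO ZT16 (5.08), IRLWT ZT8 (5.06), IRLKO ZT12 (4.73) and IRLKO ZT8 (4.62). The first pair of groups, the middle pair and the last pair each differed by no more than about their SD (0.10 to 0.24).

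The ratio of Elovl1 was -0.46 ± 0.09 (SE; 72.8% of control; limma adjusted p = 1.18e-04), -0.65 ± 0.09 (63.9%; 5.90e-07) and -0.36 ± 0.09 (77.8%; 0.00134). A second probe, A_55_P2022861 (chr4:118104741-118104800), gave -0.58, -0.67 and -0.51, all of them called. Elovl1 was called at all 3 times in each of the 48 other settings, 36 of which left out 1 array. Within wash batches its ratio was -0.58 to -0.32 at ZT8, -0.72 to -0.59 at ZT12 and -0.43 to -0.08 at ZT16. From ZT8 to ZT16 Elovl1 rose in both genotypes, by 0.37 in IRLWT (limma adjusted p = 0.00153) and 0.47 in IRLKO (1.02e-04). In IRLWT the rise was between ZT8 and ZT12 (0.33, adjusted p = 0.00826), and in IRLKO it was between ZT12 and ZT16 (0.33, adjusted p = 0.0106). The genotype effect on Elovl1 was not called as different between times (F test adjusted p = 0.302).

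Elovl3 makes long saturated and monounsaturated chains and is known for sex-dependent and circadian expression in mouse liver. At A_66_P123297 (chr19:46209325-46209384, mm9), the lowest, median and highest levels in IRLWT were 3.52, 4.17 and 4.34 at ZT8, 2.32, 3.36 and 4.63 at ZT12, and 2.21, 3.92 and 5.21 at ZT16. In IRLKO they were -6.17, -3.03 and -1.61, then -7.06, -3.16 and -1.92, then -5.77, -2.84 and -1.08. No knockout array came near a control, and the probe was well above background on 5, 4 and 5 of the 6 knockout arrays. The ratio of Elovl3 was -7.38 ± 0.71 (SE; 95% interval -8.83 to -5.93), -7.24 ± 0.71 and -6.67 ± 0.71, with limma adjusted p of 1.73e-09, 2.05e-09 and 9.00e-09. The ratios were -5.83, -5.32 and -5.37 with a normexp background correction, and -6.32, -5.75 and -5.73 in the fit to the authors' processed table. Within wash batches they were -9.73 to -5.36. The size of the ratio thus moved with the background correction, whereas its direction and call held in each of the 47 other settings in which Elovl3 was measured. The time changes of Elovl3 were not called in either genotype.

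Scd2 is the delta-9 desaturase that is high in brain and in the liver of newborn mice. At A_51_P129464 (chr19:44381024-44381083, mm9), the lowest, median and highest levels in IRLWT were -0.94, -0.50 and -0.24 at ZT8, -0.62, -0.35 and 0.52 at ZT12, and -0.24, -0.06 and 0.17 at ZT16. In IRLKO they were -1.48, -0.39 and 2.16, then -0.36, 0.68 and 1.63, then 0.01, 0.48 and 2.02. The groups overlapped at each time, and knockout livers were more variable, with SD of 1.22, 0.72 and 0.71 against 0.27, 0.42 and 0.15. The ZT8 SD of 1.22 includes IRLKO_ZT8 replicate 3 at 2.16, with the other arrays at -1.48 to -0.24. The ratio of Scd2 was 0.33 (95% interval -0.46 to 1.12), 0.93 (0.15 to 1.72) and 0.79 (0.01 to 1.58), with limma adjusted p of 0.542, 0.0510 and 0.100.

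The Scd2 result turned on single arrays. Without IRLKO_ZT8 replicate 3 the ratio of Scd2 was -0.16 at ZT8 (limma adjusted p = 0.711), 0.94 at ZT12 (0.0072) and 0.84 at ZT16 (0.0165), and the knockout rise from ZT8 to ZT16 was 1.44 (3.07e-04) instead of 0.95 (0.0631). The ZT12 ratio of Scd2 was also called, at 0.92 to 1.102, without any 1 of 7 other arrays (IRLKO_ZT12 replicates 3 and 4, IRLKO_ZT16 replicates 3 and 6, IRLKO_ZT8 replicate 2, and IRLWT_ZT12 replicates 2 and 3), and the knockout rise was 1.14 (limma adjusted p = 0.0311) without IRLKO_ZT16 replicate 3. IRLKO_ZT8 replicate 3 also had the highest summed signal of its group for macrophage markers (139, group median 83.0, in units of the 75th percentile), stellate cell markers (103, median 61.6) and markers of dividing cells (2.78, median 0.447). It had the lowest for hepatocyte markers (2281, median 2672). The same array was also highest for the adipocyte, red cell, and lymphocyte and neutrophil lists, and lowest for the nervous tissue list.

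Across groups, the macrophage list (6 genes) had median sums of 49.6, 45.1 and 45.8 in IRLWT and 83.0, 82.7 and 78.6 in IRLKO, and 1, 4 and 2 of its genes were called higher at ZT8, ZT12 and ZT16. The endothelial list (6 genes) had 0, 5 and 4 called higher and the stellate list (6 genes) 0, 2 and 2. Over all genes, 16.7%, 19.6% and 19.9% were called higher and 18.7%, 22.6% and 20.0% lower. A single call in a list of 5 or 6 genes is thus near the share of all genes. At ZT8, ZT12 and ZT16, 0, 2 and 2 of 3 measured red cell genes were called higher (Hba-a1 and Hbb-bt) and 1 lower each time (Alas2, -3.50, -2.81 and -1.77). Of 3 measured genes of dividing cells, 1, 1 and 2 were called higher, with medians of 0.99, 1.0 and 1.44. Of 5 measured adipocyte genes, 0, 1 and 1 were called higher and 1, 2 and 1 lower. Of 5 bile duct genes, 0, 0 and 1 were higher and 0, 1 and 0 lower. Of 5 lymphocyte and neutrophil genes, 1, 1 and 2 were higher and 1, 2 and 1 lower. Of 3 measured nervous tissue genes, 0, 1 and 2 were higher and 1, 2 and 1 lower. Summed signals of the stellate list ran from 36.3 to 81.9 in IRLWT and from 40.0 to 103 in IRLKO. Hepatocyte markers were called lower in 2, 3 and 3 of 6 and higher in 0, 1 (Hnf4a, 0.31, limma adjusted p = 0.0342) and 0, with sums of 3091 to 4153 in IRLWT and 2281 to 3386 in IRLKO. The part of these other cell types in the values of Scd2, and of the other members, was not tested.

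**Figure D3:**
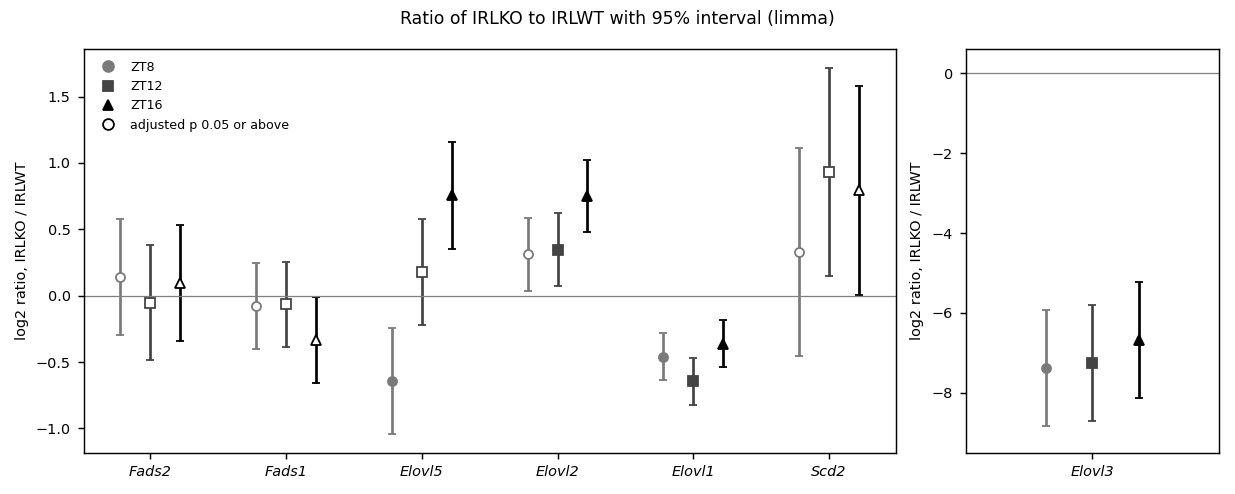
Log2 ratio of IRLKO to IRLWT with its 95% interval for the 7 genes at ZT8, ZT12 and ZT16, at the brightest probe; open symbols have an adjusted p of 0.05 or above, and Elovl3 has an axis of its own. Elovl5 goes from -0.64 at ZT8 to 0.76 at ZT16, Elovl1 and Elovl3 are below 0 at each time, and the intervals of Fads2 include 0 throughout.

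Members were called in 4 of the 6 comparisons of times within a genotype. In IRLWT, 2 of 7 members were called between ZT8 and ZT12 (Elovl1 up; Elovl5 down, -0.68, limma adjusted p = 0.0156, or -0.57 and 0.0558 without IRLWT_ZT8 replicate 6), against 14.8% of genes. Between ZT12 and ZT16 of IRLWT, limma called 0 members against 3.62% of genes, with 1 member (Elovl2) at an unadjusted p under 0.05. Without IRLKO_ZT8 replicate 3, 1 member was called there. Between ZT8 and ZT16 of IRLWT, 3 members were called (Elovl1, Elovl2 and Elovl5), against 26.6% of genes. In IRLKO, limma called 0 members between ZT8 and ZT12 against 13.2% of genes, with 1 (Scd2) at an unadjusted p under 0.05. Without IRLKO_ZT8 replicate 3, limma called 1 member in this comparison. With all arrays it called 1 (Elovl1) between ZT12 and ZT16 against 12.6%, and 2 (Elovl1 and Elovl5) between ZT8 and ZT16 against 28.9%. The genotype effect differed between ZT8 and ZT12 for 0 members by limma, against 1.25% of genes, with Elovl5 at an unadjusted p under 0.05. It differed between ZT12 and ZT16 for 0 members, against 1.95% of genes, with 3 members at an unadjusted p under 0.05. The comparisons that use the same group share its arrays.

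The other enzymes of chain elongation and desaturation were mostly lower. The list held further Elovl, Scd and Fads genes, the remaining enzymes of the elongation cycle and the cytochrome b5 system that feeds electrons to desaturases. Of its 16 measured genes, with Elovl4 below the filter, 9 were called lower and 3 higher at ZT8, 11 and 1 at ZT12, and 9 and 1 at ZT16, with median log2 ratios of -0.39, -0.51 and -0.33. Over all genes, 18.7%, 22.6% and 20.0% were called lower and 16.7%, 19.6% and 19.9% higher at these times. Hsd17b12, the ketoreductase of the elongation cycle, was lower, with ratios of -1.0 to -0.81 (SE 0.08; limma adjusted p from 3.12e-09 to 3.61e-11). The delta-9 desaturases Scd1 and Scd3 were lower, with ratios of -2.28 to -1.84 and -2.502 to -2.15. Elovl6, which elongates palmitate, had ratios of 0.38, -0.65 and -0.21, of which the ZT12 value was called (limma adjusted p = 0.0253). Fads3 had ratios of -0.38, 0.09 and 0.34, of which the ZT8 value was called (limma adjusted p = 0.0368).

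Genes of the peroxisomal steps that shorten the DHA precursor were also mostly lower. Of 11 measured genes, 7, 9 and 10 were called lower at ZT8, ZT12 and ZT16 and 1 was called higher at each time, with medians of -0.41, -0.68 and -0.57. The shares of all genes called lower were 18.7%, 22.6% and 20.0%. Scp2, the peroxisomal thiolase and sterol carrier, was lower, with ratios of -1.01, -0.92 and -0.59. Pex5 and Pex7, the receptors that import peroxisomal enzymes, were lower, with ratios of -0.72 to -0.45 and -0.68 to -0.41. The higher gene was Abcd2, a peroxisomal transporter of very long chain acyl-CoA, with ratios of 1.66, 1.72 and 1.12 (limma adjusted p = 1.47e-04, 7.68e-05 and 0.00601).

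A list of 9 genes held those that activate these fatty acids and place them in phospholipids, and Pla2g6, which cleaves phospholipids instead. Called lower were 3, 5 and 4 of the 9 and called higher 2, 1 and 2, with medians of -0.15, -0.52 and -0.29. Among all genes, 18.7%, 22.6% and 20.0% were called lower and 16.7%, 19.6% and 19.9% higher. Acsl5 and Acsl1, which form acyl-CoA, were lower, with ratios of -1.11 to -0.71 and -0.98 to -0.50. Acsl4 of the same family was higher at all 3 times, with ratios of 0.89, 0.64 and 0.56 (limma adjusted p = 4.52e-04, 0.00772 and 0.0191). Pla2g6, a phospholipase, was lower at ZT12 (-0.89, limma adjusted p = 7.08e-06). Of 12 transcription factors and partners known to act on the members, 4, 5 and 6 were called lower and 0, 2 and 2 higher, with medians of -0.15, -0.20 and -0.27. The 4 of 12 called at ZT8 were near the 35.4% of all genes called at that time. Srebf1, which encodes SREBP-1c, was lower, with ratios of -1.80, -1.48 and -1.12, and Insig1, which retains SREBP in the endoplasmic reticulum, had ratios of -1.31, -1.41 and -1.32. Ppara, which encodes PPARalpha, had ratios of -0.93 at ZT12 and -0.89 at ZT16, both called, and of -0.30 (limma adjusted p = 0.113) at ZT8.

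**Figure D4:**
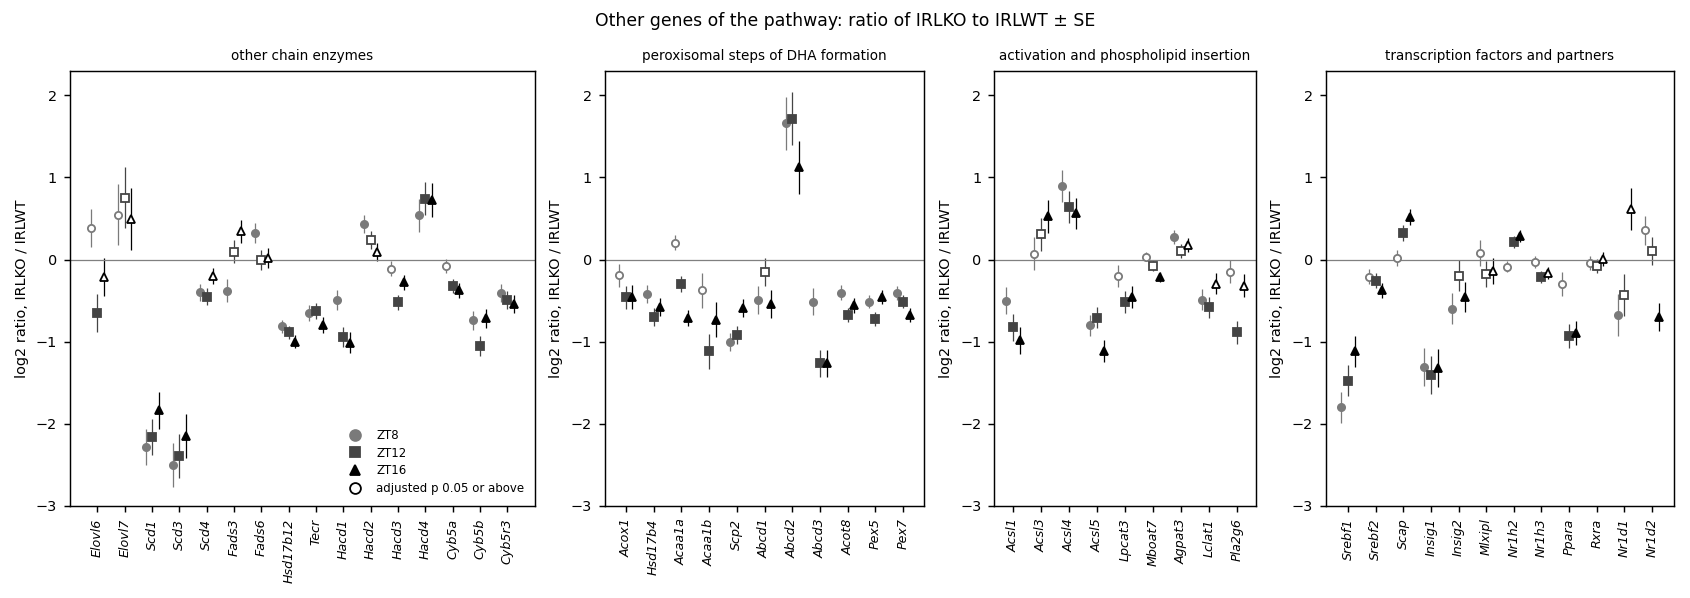
Log2 ratio of IRLKO to IRLWT ± SE for the genes of 4 related lists (other chain enzymes, peroxisomal steps, activation and phospholipid insertion, and transcription factors) at ZT8, ZT12 and ZT16. Most genes of the peroxisomal list lie below 0, with Abcd2 above it at all 3 times.

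Among arrays of the same group, levels of Fads1, Fads2, Elovl5 and Elovl2 were positively correlated. Pearson's r was taken over the 36 arrays with group and wash batch effects removed. It was 0.81 between Fads1 and Fads2, 0.72 between Elovl5 and Fads1, 0.70 between Elovl5 and Fads2, 0.69 between Elovl2 and Fads2, 0.65 between Elovl2 and Fads1 and 0.43 between Elovl2 and Elovl5. Elovl1 had r of 0.15 to 0.35 with the other members. Elovl3 had r within 0.35 of 0 with 5 members and -0.54 with Scd2. These 21 pairs share arrays and their scaling, and are given as a description. No r was computed without the arrays that stood apart. IRLKO_ZT16 replicate 6 was the highest of its group for Elovl5, Fads1 and Fads2. IRLKO_ZT12 replicate 6 was the lowest of its group for Elovl2, Fads1 and Fads2. Genes outside the list, picked as the nearest of 17895, had r as high, such as Ddt with Fads1 (0.85) and Rps24 with Elovl2 (0.79).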

How the data were processed

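Per the labels' protocols, Cy3-labelled cRNA made from 200 ng of liver RNA was hybridised to an Agilent SurePrint G3 Mouse GE v2 array for each sample. Feature Extraction 10.10.1.1 gave, per the file headers, the deposited fluorescence intensity of each spot, background subtracted and detrended. The deposited spot flags are other values, each 0 or 1. A table processed by the authors, with 32801 probes on a log2 scale and identical sorted columns (quantile normalized), served as an alternative. Scale, batch correction and filters of that table are not given in the sources used here.

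The intensity was taken to log2 minus the 75th percentile of each array. Spots marked as outliers were dropped, spots of a probe were averaged, and probes well above background on at least 6 of 36 arrays were kept (34771, less 91 with a missing value). The probe with the highest mean stood for a gene. Tests used limma 3.58.1 in R 4.3.3, with 6 group means and the wash batch (3 batches of 11 to 13 arrays, each with all 6 groups) as fixed effects, 28 residual and 2.26 prior degrees of freedom, and Benjamini-Hochberg adjustment over all genes, or all probes where single probes are compared. The fit was tested on simulated data. The number of arrays limits the precision. Alternatives changed the background correction, scaling, filter, probe choice, batch and slide terms, array weights, samples in the fit, replicate block and single arrays. A 95% interval is that of the limma fit.

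The members and lists were chosen with earlier results of these data known. Named are the members with every probe, Insr, up to 3 called genes per related list with the smallest adjusted p, the paralogs Scd1, Elovl6 and Fads3, and the 3 genes most like each member. Abcd2, Acsl4 and the 4 promoters were added outside that rule. Probe positions are those of the files (mm9). Promoters are RefSeq's on GRCm38.p6.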

Additional observations from a re-analysis of the deposited data

Results flagged for a closer look

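In 42 groups of 6 arrays (7 genes by 6 groups), the lowest or highest array stood apart from the others by Dixon's criterion in 6, where chance marks about 1 in 20. All 6 were knockout groups and involved 3 arrays. For Elovl2, IRLKO_ZT8 replicate 3 was at 5.43 with the other arrays at 6.27 to 6.56, and IRLKO_ZT12 replicate 6 was at 5.72 with the others at 6.26 to 6.42. For Scd2, IRLKO_ZT8 replicate 3 was at 2.16 with the others at -1.48 to -0.24. IRLKO_ZT16 replicate 6 was the highest of its group for Elovl5 (5.99, others 5.11 to 5.33), Fads1 (3.42, others 2.61 to 2.86) and Fads2 (4.59, others 2.98 to 3.54). The same array had the highest sum of its group for adipocyte markers (9.93, group median 4.17) and for markers of dividing cells (1.67, median 0.435). It was also highest for the bile duct, red cell, and lymphocyte and neutrophil lists, and lowest for the endothelial list (35.05, median 41.14). Adipoq, Plin1 and Cfd of the adipocyte list were well above background on only 9, 16 and 14 of 36 arrays. In IRLKO_ZT16, Fabp4 had a mean level of 2.139, and the other measured adipocyte genes had means below the 75th percentile. The adipocyte sum of this group thus rested mainly on Fabp4. IRLKO_ZT12 replicate 6 had the highest sum for macrophage markers (173, median 82.7) and the lowest for hepatocyte markers (2541, median 3019). This array was also highest for the endothelial, stellate and dividing cell lists, and lowest for the nervous tissue list. The part of these cell types was not tested.

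The genotype effect on Elovl5 differed between times. The effect at ZT16 minus that at ZT8 was 1.40 (limma adjusted p = 0.00113), and the F test over the 3 times had an adjusted p of 0.00406.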

How the results depend on the processing

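Elovl1 kept its direction and call at all 3 times in each of 48 other settings, as did Elovl2 at ZT16 and, in 47, Elovl3, which has no value where probes must be well above background on all arrays. Elovl5 kept its direction at ZT8 and ZT16 in all 48 and its call in 47. Counts of called members moved as follows. With array weights, 1 member was called between ZT8 and ZT12 in IRLKO, 2 between ZT12 and ZT16 in IRLKO and 1 between ZT12 and ZT16 in IRLWT, instead of 0, 1 and 0. With quantile normalization, 1 was called between ZT8 and ZT12 in IRLWT (not 2), 1 between ZT12 and ZT16 in IRLWT (not 0), 1 between ZT8 and ZT16 in IRLKO (not 2), and 2 by the ZT16 against ZT8 test of the genotype effect and by the F test (not 1). The authors' table gave 2 in both of these last tests and the mean of the probes 0. In the F test the added member was Elovl2, both with quantile normalization and in the authors' table. The mean of the probes, or a fit limited to the compared groups, gave 1 in IRLWT between ZT8 and ZT12. Between ZT8 and ZT16 in IRLKO, 1 was called with no filter on dim probes, no wash batch, only the groups compared, slide as a fixed block, or the replicate block. The cause was not tested.

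Leaving out 1 array gave 3 to 4 called members at ZT8, 2 to 4 at ZT12 and 4 to 5 at ZT16. It gave 0 to 1 (IRLKO, ZT8 to ZT12), 1 to 2 (IRLWT, ZT8 to ZT12), 0 to 1 (IRLWT, ZT12 to ZT16), 1 to 2 (IRLKO, ZT8 to ZT16), 2 to 3 (IRLWT, ZT8 to ZT16) and 1 in the remaining tests with a call.

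The following values changed sign. Elovl2 was at -0.26 at ZT12 within wash batch 3 (1 knockout array, no test), and at -0.13 (IRLKO, ZT16 against ZT8) with array weights. The dim Elovl5 probe gave 0.41 at ZT8 and -0.29 at ZT16. Fads1 was at 0.0319 at ZT12 and 0.0036 at ZT8 in the authors' table, and at 0.0388 at ZT12 with quantile normalization. Fads2 at ZT12 was at 0.0122 with array weights, 0.0721 in the authors' table, 0.0508 with quantile normalization and 0.0216 with slide as a fixed block. Fads2 at ZT16 was at -0.16 with array weights, -0.52 with the mean of the probes (limma adjusted p = 0.0343), and -0.33, -0.98, -0.86 and -0.52 at its other probes. Between ZT8 and ZT16, Fads2 was at -0.17 with array weights and -0.88 with the mean of the probes (7.80e-04) in IRLKO, and at -0.15 with the mean of the probes in IRLWT. Scd2 at ZT8 was at -0.0014 with array weights. Within wash batches, ratios that were not called took both signs for Fads1 (-0.24 to 0.23 at ZT8, -0.71 to 0.13 at ZT12, -0.63 to 0.39 at ZT16), Fads2 (-1.18 to 0.29 at ZT12, -0.30 to 0.89 at ZT16), Elovl5 (-0.32 to 0.37 at ZT12) and Scd2 (-0.0666 to 1.14 at ZT8). With single arrays left out, Elovl2 (IRLKO, ZT16 against ZT8) ran from -0.13 to 0.0891, Fads1 from -0.18 to 0.0565 at ZT12 and -0.14 to 0.0183 at ZT8, Fads2 from -0.17 to 0.17 at ZT12, -0.11 to 0.21 at ZT16 and -0.18 to 0.15 (IRLKO, ZT16 against ZT8), and Scd2 from -0.16 to 0.65 at ZT8.

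Samples share only a replicate number. With group and wash batch effects removed, the median correlation over 90 same-numbered pairs was 0.0203, against 0.00539 over 450 other pairs. The replicate block moved the knockout count between ZT8 and ZT16 from 2 to 1 (Elovl5, 0.52, limma adjusted p = 0.0539) and changed no other count of called members by more than 1.5 times. Of other calls, Scd2 at ZT12 was called in 15 of 48 settings (adjusted p 0.0072 to 0.136) and Elovl2 at ZT8 in 5. Elovl3 in knockout livers is limited by signal near background.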

Other observations

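For each member, the genes whose level ran most like it over the 36 arrays were sought among the 17895 other genes measured above background throughout, with wash batch means removed. The likeness is Pearson's r. The r within groups, with group and wash batch effects removed, is given beside it, as a description with no test. The nearest to Elovl1 were Rexo2 (0.93, and 0.58 within groups), Cib1 (0.92 and 0.46) and Tpst2 (0.92 and 0.58). The nearest to Elovl2 were the ribosomal protein gene Rps24 (0.88 and 0.79), the elongation factor gene Eef1b2 (0.88 and 0.85) and a transcript without a symbol, and such transcripts are not named here. The nearest to Elovl3 were Cyp2d11 (0.97 and 0.83) and Glo1 (0.97 and 0.70). Scd2 ran with Naaa (0.90 and 0.88), Oxct1 (0.89 and 0.84) and Ehd4 (0.88 and 0.82). Fads1 ran with Ddt (0.85 and 0.85) and the glycolytic gene Pgk1 (0.79 and 0.79), and Fads2 with Prdx2 (0.70 and 0.78) and Pigo (0.70 and 0.81). Elovl5 ran with Dmap1 (0.73 and 0.47), Chmp2b (0.73 and 0.57) and Spata22 (0.70 and 0.28). For Elovl1, Elovl5 and Elovl3 the r over all arrays was higher than that within groups, and for Fads2 it was lower.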
